A study of Mus musculus with 12 samples.

Results

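The HSP70 chaperone machine of splenic CD4+ T cells was followed through 10 genes of 55414 gene records, namely Hspa8, Hspa1a, Hspa1b, Hsph1, Hspa4, Hspa4l, Dnajb1, Dnaja1, Bag3 and Hsf1. They were found by gene symbol and read by their gene identifier in 12 RNA-seq libraries. The 10 genes were selected on the comparison of the periodontitis and control groups on day 0 and on how that comparison differed between days, so the values of those contrasts describe the choice and carry no test. The contrasts within day 2 and between days are given with edgeR p-values, but the difference between days is built from the same libraries, so these p-values are not independent of the choice. CD4+ T cells were purified by negative selection from the spleens of 18-week-old male wild-type BALB/c mice. In the LIP group (ligature-induced periodontitis) a 6-0 silk ligature had been tied around the maxillary second molars for 14 days, and the CTL group was anaesthetised without a ligature. Cells were taken either directly after purification (day 0) or after 2 days of culture with IL-2, anti-TCRβ and anti-CD28 (day 2), which gives 4 groups of 3 libraries. The day 2 labels give 10 ng/mL IL-2, 1 µg/mL anti-TCRβ and 1 µg/mL anti-CD28, whereas the study's methods state other doses of IL-2 and anti-TCRβ, and 4 of the 6 day 2 labels name anti-CD29 or anti-CD30 in place of anti-CD28. All mice were male and of 1 inbred strain, and the sources used here do not say whether each library came from a separate mouse, so p-values measure the spread between libraries, which may be technical.

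HSP70 proteins hold unfolded stretches of other proteins in a cycle driven by ATP. J-domain proteins (the HSP40 family) bring clients to HSP70 and start ATP hydrolysis, while nucleotide exchange factors, which include the HSP110 proteins and the BAG proteins, release ADP and let the client go. In unstressed cells the constitutive HSP70 carries this work, and the heat shock factor HSF1 switches on the inducible HSP70 genes and several co-chaperones when unfolded protein accumulates. T cells make large amounts of new protein when their receptor is engaged.

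HSF1 binds the heat shock element, a repeat of short units, so the member promoters in which letters of such repeats were found are shown first. A search was made on both strands for 2 neighbouring units, spelled GAANNTTC or TTCNNGAA, and for 3 alternating units in a row, in windows from 250 bases before to 50 bases after each transcript start (RefSeq, GRCm38.p6). Each of the 2 spellings reads the same on both strands, and overlapping matches share a unit. At least 1 such pair lay in 15.1% of all 32851 promoters, and a run of 3 units lay in 0.603%. Of the members, 8 genes had a promoter in this collection, and 5 of these 8 held a pair of units in at least 1 of their windows. These were Hspa1a, Hspa1b, Hsph1, Dnaja1 and Bag3, against 17.0% of all 27025 genes. The windows of Hspa4, Hspa4l and Dnajb1 held none of these letters, and Hspa8 and Hsf1 are named only. Each window was placed on GRCm39, the build of the counts, by an exact match near its gene. The 250 bases before the start of Hspa1a (chr17:35191133-35191382, minus strand) and of Hspa1b (chr17:35178215-35178464, minus strand) are shown because the genes are near copies, with 296 of 300 promoter bases identical. Capitals mark the units.
Hspa1a: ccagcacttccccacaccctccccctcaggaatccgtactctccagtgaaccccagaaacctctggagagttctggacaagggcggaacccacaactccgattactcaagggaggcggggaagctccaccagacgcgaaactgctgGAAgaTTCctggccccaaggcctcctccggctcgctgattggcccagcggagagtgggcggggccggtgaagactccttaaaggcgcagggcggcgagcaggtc
Hspa1b: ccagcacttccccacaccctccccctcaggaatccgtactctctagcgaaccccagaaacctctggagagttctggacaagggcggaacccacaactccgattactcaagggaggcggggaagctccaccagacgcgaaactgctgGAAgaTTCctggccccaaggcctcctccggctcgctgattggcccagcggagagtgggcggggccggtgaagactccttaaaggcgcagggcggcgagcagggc
In both, the pair started 104 bases before the transcript start. For the others only a short window around the units is given. Hsph1 was the single member with 3 units in a row, 15 bases after 1 of its 2 RefSeq starts (chr5:149559745-149559773, minus strand), and it held a further pair 33 bases before the other start (chr5:149559816-149559845). Dnaja1 held a pair 124 bases before the first of its 3 starts (chr4:40722333-40722362, plus strand), and Bag3 a pair 42 bases after its start (chr7:128125338-128125356, plus strand).
Hsph1, 3 units: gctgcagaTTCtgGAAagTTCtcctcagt
Hsph1, 2 units: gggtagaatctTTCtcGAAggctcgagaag
Dnaja1: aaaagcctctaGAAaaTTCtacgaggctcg
Bag3: ggatgggaccaGAAgtTTC
A match of letters is not evidence of binding, and neither binding nor chromatin was measured here.

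Libraries held 6249018 to 7845676 estimated counts on day 0 and 8691699 to 12866718 on day 2, so 3 counts were worth 0.268 to 0.451 CPM (counts per 1000000 counts of a library, scaled by TMM factors). Markers fitted the purified cell type. The summed level of 8 T cell and CD4 genes was 2477 to 4396 CPM in every library, against 4.42 to 13.2 for Cd8a and Cd8b1, 2.50 to 13.9 for 8 myeloid genes and 0.954 to 14.1 for 4 NK cell genes, with S100a8, S100a9 and Klra8 at 0 throughout. B cell genes summed to 0.894 to 3.68 CPM in 9 libraries but to 19.0 in CTL 97, 31.8 in LIP 96 and 28.9 in LIP 97 on day 2, and the 8 pancreatic acinar genes to 24.7 CPM in LIP 93 on day 0. On day 0 the sum of 15 immediate early genes was 2226 CPM in CTL 88, 2113 in CTL 89 and 1260 in CTL 94, and 1296, 1065 and 1132 CPM in LIP, so the sums overlapped and CTL 94 lay among the LIP libraries. Gene by gene, 13 of the 15 were tested, and all 13 were lower in LIP, with a median log2 fold change of -0.52. Of these, 3 passed an adjusted p of 0.05 (edgeR), against 0.427% of all genes in either direction. For 5, every LIP library lay below every CTL library, against 9.85% of all genes. The part of these genes in the results was not tested.

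Hspa8, the constitutive HSP70 (chromosome 9, 40711630 to 40731039, 9 exons), was the most abundant member. The day 0 CTL libraries held 819, 929 and 874 CPM, and the LIP libraries of that day 426, 421 and 510 CPM. On day 2 it stood at 955, 1139 and 1222 CPM in CTL and 1287, 1531 and 1767 in LIP. The LIP libraries therefore all lay below the CTL libraries on day 0 and all lay above them on day 2. The day 0 log2 fold change of LIP over CTL was -0.94 ± 0.09 (SE, n = 3 per group). On day 2 it was 0.46 ± 0.17, higher in 3 of 3 LIP libraries but not past the threshold (edgeR quasi-likelihood, adjusted p = 0.233, unadjusted p = 0.0241). Culture raised Hspa8 by a log2 fold change of 1.76 ± 0.14 in LIP (edgeR adjusted p = 8.93e-08) and by 0.34 ± 0.13 in CTL (edgeR adjusted p = 0.0352). The CTL rise fell short of the threshold when CTL 88 or CTL 94 of day 0, or CTL 93 or CTL 97 of day 2, was left out, and the lowest value was 0.26 without CTL 97. It also fell short with library totals (0.15) or upper quartile scaling (0.05) in place of TMM, and with a filter of at least 10 counts in every library (0.28, edgeR adjusted p = 0.0810). Both activation contrasts use the same day 0 libraries as the contrast that chose the members. In bulk RNA, fewer cells with a transcript and less of it per cell cannot be told apart.

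The counts of Hspa8 were shared with a processed pseudogene. The record Gm15459 (chromosome 5, 5831615 to 5833555, minus strand, 1 exon) shares 48.7% of the stretches of 150 bases of the Hspa8 transcript exactly, as does no other record to this extent, and it collected 129306 counts over the 12 libraries. Gm8355, Gm6210 and Gm7232, which also share stretches of that length, had 4, 3 and 6 counts. Gm15459 took 48.4 to 56.5% of the counts of the pair on day 0 and 54.5 to 58.9% on day 2. Its mean level was 929 ± 79 CPM in CTL and 502 ± 51 in LIP on day 0, and 1485 ± 244 and 1971 ± 218 on day 2 (SD, n = 3). How many of these reads came from the pseudogene itself cannot be told from the deposited counts. When all 5 records were summed as 1 feature, the log2 fold change of LIP over CTL was -0.91 ± 0.08 on day 0 and 0.42 ± 0.17 on day 2 (edgeR adjusted p = 0.271), and that of day 2 over day 0 was 0.52 ± 0.13 in CTL (edgeR adjusted p = 0.00229) and 1.87 ± 0.13 in LIP (edgeR adjusted p = 3.31e-08). Taken alone, Gm15459 had a log2 fold change of 0.40 ± 0.17 on day 2 (edgeR adjusted p = 0.282), with overlapping groups.

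**Figure D1:**
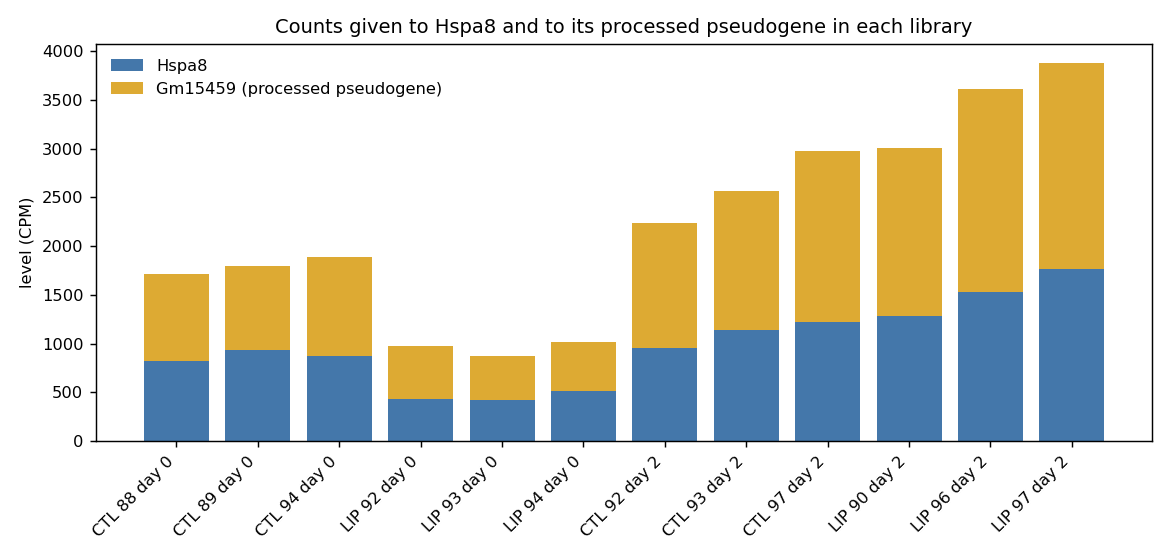
Level in CPM (vertical axis) of Hspa8 (blue) and of its processed pseudogene Gm15459 (yellow), stacked, in each of the 12 libraries (horizontal axis). The pair sums to 872 to 1012 CPM in the LIP libraries of day 0 and to 3007 to 3882 in the LIP libraries of day 2, and the pseudogene takes 48.4 to 58.9% of each bar.

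Hspa1a and Hspa1b, the stress-inducible HSP70 genes (single-exon genes on chromosome 17, 35188166 to 35191132 and 35175412 to 35178214), were scarce. Hspa1b had 23, 50 and 253 counts in the CTL libraries of day 0, or 3.46, 6.01 and 33.2 CPM, and 14, 12 and 23 counts in the LIP libraries, or 1.92, 1.68 and 3.07 CPM. Hspa1a had 13, 11 and 134 counts in CTL (1.95, 1.32 and 17.6 CPM) and 3, 7 and 7 in LIP (0.412, 0.982 and 0.933 CPM) and did not pass the count filter on day 0. The high value of both genes came from CTL 94, and the LIP libraries of both genes lay below the CTL libraries also without it. Hspa1b had a day 0 log2 fold change of -2.67 ± 0.74 (SE), and of -1.10 without CTL 94.

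On day 2 Hspa1b stood at 3.69, 5.72 and 3.40 CPM in CTL and 1.88, 1.03 and 2.59 in LIP, with a log2 fold change of -1.25 ± 0.39, lower in 3 of 3 LIP libraries but not past the threshold (edgeR adjusted p = 0.188). Hspa1a stood at 3.27, 2.74 and 1.81 CPM in CTL and 3.13, 0.467 and 1.81 in LIP, so the groups overlapped. Hspa1b fell between day 0 and day 2 in CTL, with a log2 fold change of -1.74 ± 0.63 (edgeR adjusted p = 0.0244), but without CTL 94 the value was -0.13 (edgeR adjusted p = 0.781). The sign for Hspa1a turned without that library, from -1.41 to 0.72. Reads of the genes are hard to separate, since 40.5% of the stretches of 150 bases of Hspa1b occur in Hspa1a. Summed as 1 feature they had a log2 fold change of -2.81 ± 0.77 on day 0 and -0.94 ± 0.41 on day 2 (edgeR adjusted p = 0.301).

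Per length, the inducible genes were a small part of the cytosolic HSP70 transcripts. Hspa1a and Hspa1b together made up 0.550, 0.663 and 4.64% of the summed CPM per kilobase of Hspa8, Hspa1a and Hspa1b in the CTL libraries of day 0 and 0.462 to 0.657% in the LIP libraries. On day 2 the share was 0.356 to 0.619% in CTL and 0.0819 to 0.320% in LIP, so that the LIP libraries lay below the CTL libraries. Counts given to Gm15459 are not part of these shares.

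Hsph1, the stress-inducible HSP110 (chromosome 5, 149537636 to 149560156, 18 exons), had the widest gap between the groups on day 0 of the members with over 100 counts in every library. Its level was 262, 255 and 296 CPM in CTL and 87.0, 83.7 and 92.8 in LIP. The log2 fold change was -1.62 ± 0.08 (SE), which is a level 3.08-fold lower, and it was between -1.67 and -1.55 whichever library was left out. After culture the CTL libraries held 119, 125 and 124 CPM, while LIP 90 held 155 and the other two LIP libraries 65.6 and 71.7. The day 2 log2 fold change was -0.34 ± 0.29 with a 95% interval of -0.91 to 0.22 (edgeR adjusted p = 0.589). Without LIP 90 it was -0.82 (edgeR adjusted p = 0.0016), where both remaining LIP libraries lay below the CTL libraries. Hsph1 fell by 1.15 ± 0.24 on the log2 scale between day 0 and day 2 in CTL (edgeR adjusted p = 0.000723). In LIP its day 2 log2 fold change over day 0 was 0.15 ± 0.24 (edgeR adjusted p = 0.573), without LIP 90 it was -0.35 (edgeR adjusted p = 0.0047), and with upper quartile scaling or library totals it was -0.18 or -0.21.

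Hspa4 and Hspa4l, the other HSP110 genes, rose with culture in both groups. Hspa4 (chromosome 11, 53150641 to 53191531) stood at 176, 160 and 169 CPM in CTL and 153, 156 and 151 in LIP on day 0, a log2 fold change of -0.13 ± 0.07 with groups that did not overlap, and of -0.06 with library totals. On day 2 it stood at 364, 375 and 411 CPM in CTL and 448, 378 and 368 in LIP. The rise was 1.19 ± 0.10 on the log2 scale in CTL (edgeR adjusted p = 1.56e-07) and 1.37 ± 0.10 in LIP (edgeR adjusted p = 3.91e-08). Its groups overlapped on day 2, with a 95% interval of -0.20 to 0.28 for the log2 fold change.

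Hspa4l (chromosome 3, 40698643 to 40750538) stood at 61.9, 53.8 and 70.6 CPM in CTL and 35.9, 36.5 and 38.5 in LIP on day 0, a log2 fold change of -0.74 ± 0.11. On day 2 the levels were 176, 183 and 149 CPM in CTL and 142, 169 and 190 in LIP, which overlapped (log2 fold change -0.03, 95% interval -0.32 to 0.26). Culture raised it by 1.45 ± 0.13 on the log2 scale in CTL (edgeR adjusted p = 4.17e-07) and by 2.17 ± 0.14 in LIP (edgeR adjusted p = 1.21e-08).

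The J-domain partners were lower in LIP on day 0 and fell with culture in CTL. Dnajb1, the class B J-domain protein induced by heat shock (chromosome 8, 84334811 to 84339820), stood at 91.3, 99.8 and 151 CPM in CTL and 59.4, 58.1 and 69.6 in LIP on day 0, a log2 fold change of -0.87 ± 0.16 that was -0.61 without CTL 94. On day 2 it stood at 58.9, 67.5 and 67.2 CPM in CTL and 78.4, 56.8 and 50.7 in LIP. It fell by 0.82 ± 0.19 on the log2 scale in CTL (edgeR adjusted p = 0.0015), whereas in LIP the log2 fold change was -0.01 ± 0.19 (95% interval -0.38 to 0.36, edgeR adjusted p = 0.973).

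Dnaja1, a class A J-domain protein of the cytosol (chromosome 4, 40722056 to 40737149), stood at 378, 360 and 498 CPM in CTL and 262, 259 and 272 in LIP on day 0, a log2 fold change of -0.63 ± 0.11. It fell in both groups to 185, 187 and 202 CPM in CTL and 249, 156 and 161 in LIP. The log2 fold change of day 2 over day 0 was -1.10 ± 0.17 in CTL (edgeR adjusted p = 4.88e-05) and -0.49 ± 0.17 in LIP (edgeR adjusted p = 0.017). The call in LIP was lost without LIP 94 of day 0, LIP 96 or LIP 97, with values of -0.46, -0.36 and -0.38. As with Hsph1, LIP 90 was the high library. Of the stretches of 150 bases of Dnaja1, 11.7% also occur in 3 pseudogenes, and the part of these in its counts was not tested.

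Bag3, a nucleotide exchange factor that passes HSP70 clients to autophagy (chromosome 7, 128125283 to 128148705), was low throughout. It stood at 12.5, 15.3 and 14.6 CPM in CTL and 11.0, 10.5 and 11.1 in LIP on day 0, a log2 fold change of -0.37 ± 0.14. On day 2 the values were 10.8, 11.1 and 8.62 CPM in CTL and 11.0, 6.82 and 6.86 in LIP. It fell in CTL by 0.48 ± 0.19 on the log2 scale (edgeR adjusted p = 0.0396), a call lost without 5 of the 6 libraries, and had a value of -0.39 ± 0.20 in LIP (edgeR adjusted p = 0.0876). The LIP value passed without LIP 90 (-0.66, edgeR adjusted p = 0.00397), with upper quartile scaling (-0.72), with library totals (-0.75) and with at least 10 counts in every library (-0.48).

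Hsf1, which encodes the transcription factor (chromosome 15, 76361558 to 76388138), was the member whose day 0 groups overlapped. It stood at 67.3, 76.5 and 56.7 CPM in CTL and 59.3, 62.2 and 61.7 in LIP, a log2 fold change of -0.13 ± 0.10. On day 2 the levels were 35.6, 40.2 and 42.5 CPM in CTL and 40.9, 36.5 and 42.2 in LIP (log2 fold change 0.00, 95% interval -0.24 to 0.25). It fell by 0.76 ± 0.12 on the log2 scale in CTL (edgeR adjusted p = 7.18e-05) and by 0.62 ± 0.12 in LIP (edgeR adjusted p = 0.000416). HSF1 is controlled largely at the level of the protein, which was not measured.

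**Figure D2:**
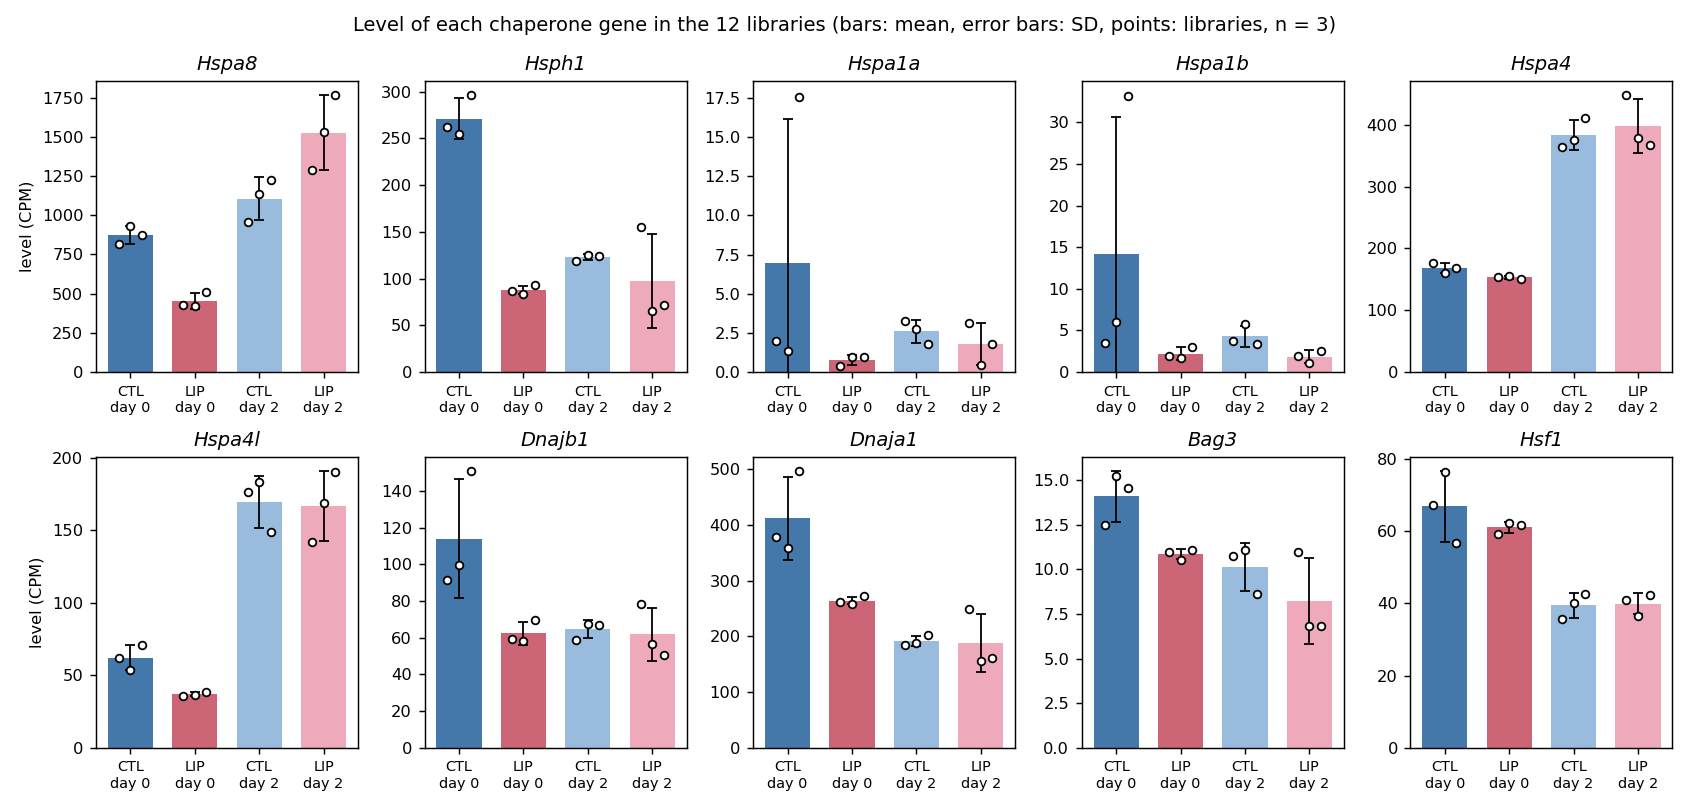
Level in CPM (vertical axis from 0, scale differs by panel) of each of the 10 genes in the 4 groups (horizontal axis). Bars are means, error bars the SD and points the 3 libraries of a group. Hspa8 is lower in LIP on day 0 and higher on day 2, Hspa4 and Hspa4l rise with culture in both groups, and CTL 94 carries most of the Hspa1a and Hspa1b level of the CTL group of day 0.

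Taken per length, Hspa8 led in every group, with 365 ± 23 CPM per kilobase of transcript in CTL on day 0 (SD, n = 3), 189 ± 21 in LIP on day 0, 462 ± 57 in CTL on day 2 and 638 ± 100 in LIP on day 2. The second place passed from Dnaja1 on day 0 (73.9 ± 13.5 in CTL and 47.4 ± 1.2 in LIP) to Hspa4 on day 2 (78.8 ± 5.1 and 81.8 ± 9.0). In CTL on day 0 Hsph1 (43.9 ± 3.6) followed Dnaja1, and Hspa4 (34.6 ± 1.6) and Dnajb1 (32.3 ± 9.2) did not differ beyond their spread. In LIP on day 0 Hsph1 (14.2 ± 0.7) stood below Dnajb1 (17.6 ± 1.8) and just above Hsf1 (11.9 ± 0.3). On day 2 in CTL, Hsph1 (19.9 ± 0.5), Dnajb1 (18.3 ± 1.4) and Hspa4l (17.6 ± 1.9) lay within about their spread of each other, as did Dnajb1, Hspa4l and Hsph1 in LIP at 15.8 to 17.5 CPM per kilobase. Bag3, Hspa1b and Hspa1a held the last places on day 2 in both groups.

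The question put to the day 0 libraries was how ligature periodontitis altered CD4+ T cells of the spleen before any stimulation. Of the 10 members 9 passed the count filter on day 0 and all 9 had a lower mean in LIP, with a median log2 fold change of -0.74 against 0.01 for all 14064 genes tested. In 8 of the 9 every LIP library lay below every CTL library, which was so for 9.85% of all genes, and 0.427% of all genes passed an adjusted p of 0.05 in either direction. This contrast chose the members, so nothing is read from these counts. The values lay on a range from -0.13 for Hspa4 and Hsf1 to -2.67 for Hspa1b. Left-out libraries moved the median between -0.87 and -0.61.

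On day 2 the question was whether the groups differed after stimulation. The day 2 libraries are part of the difference between days that was known when the members were chosen, so this comparison is not independent of the choice either. None of the 10 members passed the threshold (edgeR), and 0% of the 14041 genes tested passed it. An unadjusted p under 0.05 was found for 2 members, Hspa8 (higher in LIP) and Hspa1b (lower), and for 2322 of all genes. The groups did not overlap for the same 2 members, against 21.4% of all genes. The median log2 fold change of the members was -0.05. Without LIP 90 it was -0.25, and then Hspa8 (0.59, edgeR adjusted p = 0.0216) and Hsph1 (-0.82) passed the threshold, with 2014 of all genes. LIP 90 also held the lowest sum of B cell genes, 0.894 CPM against 31.8 and 28.9 in the other LIP libraries of day 2, and the part of this in the result was not tested.

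**Figure D3:**
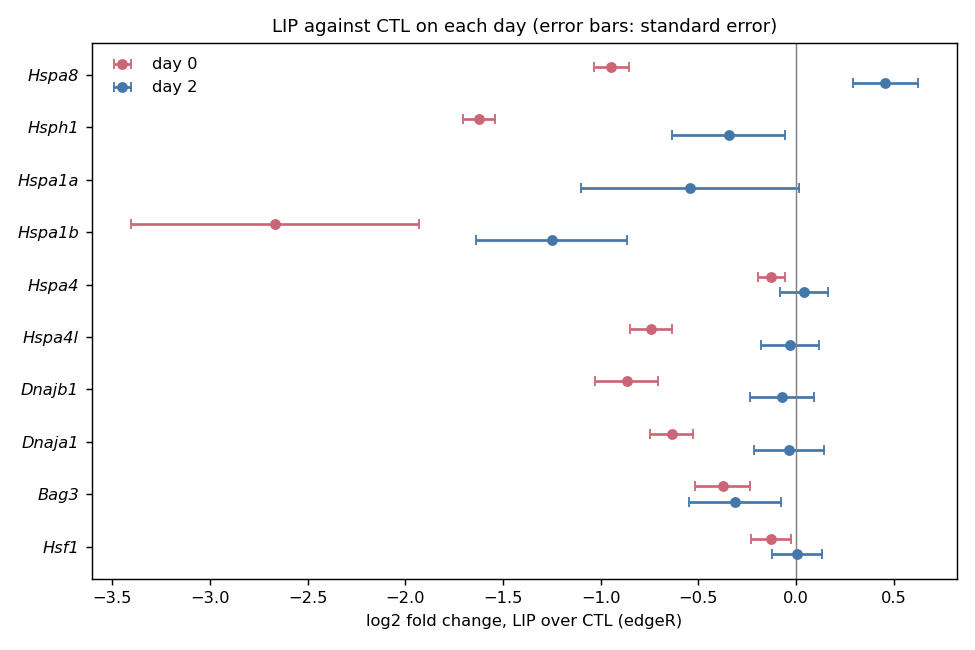
Log2 fold change of LIP over CTL (horizontal axis) for each gene (vertical axis) on day 0 (red) and day 2 (blue), with standard errors from the edgeR fit. All day 0 points lie below 0, and they chose the genes, while the day 2 points lie between -1.25 and 0.46. Hspa1a has no day 0 point because it did not pass the count filter.

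The comparison of day 2 with day 0 asked how stimulation changed the genes in each group. In CTL, Hspa8, Hspa4 and Hspa4l rose and Hsph1, Hspa1b, Dnajb1, Dnaja1, Bag3 and Hsf1 fell (edgeR adjusted p under 0.05), which is 3 higher and 6 lower of 10, while among all 15475 genes 35.3% rose and 33.7% fell. In LIP the same 3 genes rose and Dnaja1 and Hsf1 fell, with 36.6% and 35.2% of all genes. The median log2 fold change of the members was -0.79 in CTL and 0.07 in LIP, against -0.02 and 0.00 for all genes. Library totals and upper quartile scaling called fewer genes higher, against 5456 higher and 5220 lower with TMM in CTL and 5665 and 5446 in LIP. With library totals 4621 were higher and 6272 lower in CTL, and 4138 higher and 7285 lower in LIP. With upper quartile scaling 4259 were higher and 6827 lower in CTL, and 4293 higher and 7084 lower in LIP. Under either scaling 2 members passed as higher and 6 as lower in CTL, and 3 as higher and 3 as lower in LIP. The median in CTL rested in part on CTL 94, without which it was -0.28 and 4 members passed as lower. Without LIP 90 the LIP median was -0.28 and 4 members passed as lower. A rise within 1 group and a missed threshold in the other do not show a difference between groups. The difference between days of the LIP effect was positive for all 10 members, with a median of 0.77 on the log2 scale, and was 1.42 ± 0.19 for Hspa8, 1.30 ± 0.34 for Hsph1 and 0.72 ± 0.18 for Hspa4l, against 0.08 ± 0.27 for Bag3. These differences contain the day 0 contrast that chose the members and carry no test. Without LIP 90 the difference for Hsph1 was 0.79, and with library totals that for Hspa4 was 0.01. Hspa1b turned to -0.17 without CTL 94, Bag3 to -0.19 without LIP 90 and to -0.02 without CTL 97, and with library totals in place of TMM factors Bag3 was at -0.09 and Hsf1 at -0.03.

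**Figure D4:**
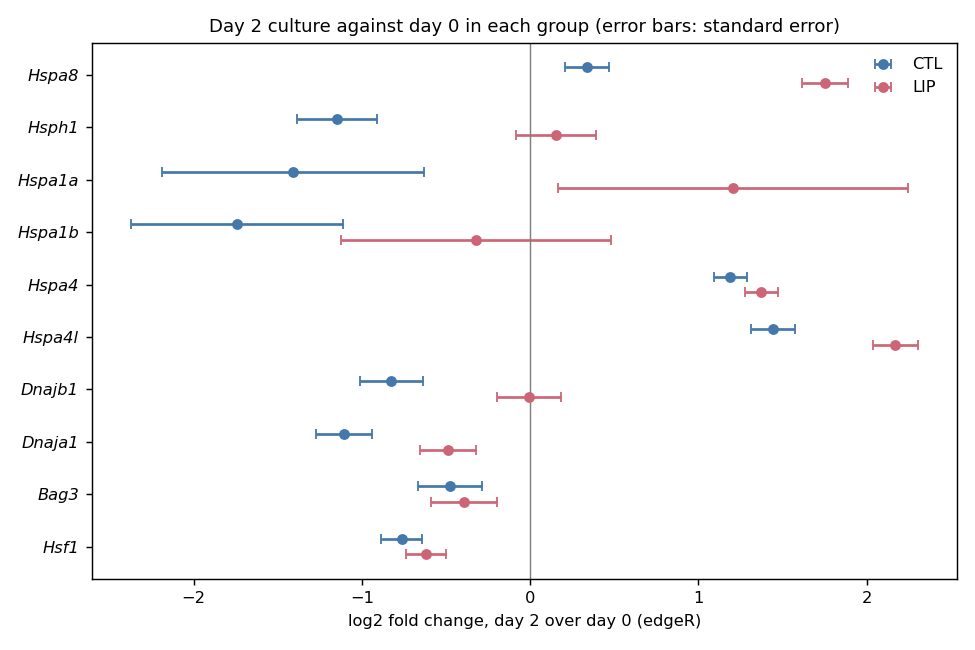
Log2 fold change of day 2 culture over day 0 (horizontal axis) for each gene (vertical axis) in CTL (blue) and LIP (red), with standard errors from the edgeR fit. Hspa8, Hspa4 and Hspa4l lie above 0 in both groups, and the LIP point lies to the right of the CTL point for every gene, which flips for Bag3 and Hsf1 with library totals.

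A further 80 genes were counted with the HSP70 system. They include 9 small heat shock proteins and 5 genes for other heat shock factors and their regulator. Of the 80, 64 were tested on day 0, and 3 passed the threshold, all lower in LIP, against 0.427% of all genes in either direction. Stip1, which links HSP70 to HSP90, stood at 165 ± 16 CPM in CTL and 64.8 ± 2.2 in LIP (SD, n = 3), a log2 fold change of -1.35 ± 0.08 (edgeR adjusted p = 1.56e-05). St13, a cofactor that stabilises the ADP-bound HSP70, had -0.62 ± 0.08 (edgeR adjusted p = 0.00433), and Dnajb4, a class B J-domain protein, -0.62 ± 0.11 (edgeR adjusted p = 0.0375, and 0.0635 with library totals). The median over the 64 was -0.07, with 24 higher and 40 lower. Every LIP library lay above every CTL library for 5 of them and below for 14, against 9.27% and 9.85% of all genes. Of the 4 HSP70 and HSP110 genes of the endoplasmic reticulum or mitochondria, none passed, and the log2 fold changes were -0.49 for Hspa5, -0.16 for Hspa9, -0.15 for Hspa13 and -0.11 for Hyou1. Among 11 known HSF1 target genes outside the HSP70 system all 11 were lower in LIP and 9 passed, against 0.427% of all genes, from Hspd1 at -0.59 ± 0.09 to Hsp90aa1 at -1.18 ± 0.08. These lists were drawn up with earlier results of these libraries known, so the counts are not independent evidence about them. On day 2 the summed level of the HSF1 targets was 6806 to 7783 CPM in CTL and 7963 to 9355 CPM in LIP, without overlap, while 5 of the 11 were higher and 6 lower in LIP and none passed (edgeR). Hsp90ab1, a cytosolic HSP90 gene singled out after its values were seen, had a log2 fold change of -1.09 ± 0.08 on day 0 and 0.35 ± 0.13 on day 2 (edgeR adjusted p = 0.251), with no overlap on either day. Its difference between days was 1.46 ± 0.13 (edgeR adjusted p = 0.000672), in a comparison where 0.0517% of all genes passed. Because the gene was picked on these values, this p-value is not independent of the choice. Hspa5, Dnaja2, Dnajb6 and Ubb were also lower in every LIP library on day 0 and higher on day 2, with no call on either day. Of the 12946 genes tested on both days 1.41% had this order, and 0.973% the opposite one. The small heat shock proteins summed to 2.71 to 4.08 CPM in CTL and 5.22 to 5.90 CPM in LIP on day 0, without overlap, and to 4.65 to 6.32 CPM in CTL and 4.92 to 5.82 CPM in LIP on day 2. The small heat shock protein gene Hspb6 was the only gene of that list tested on day 0, at 0.80 ± 0.27 (edgeR adjusted p = 0.222). On day 2, none of 62 tested genes of the system passed (edgeR), and 12 were higher and 4 lower in LIP with groups that did not overlap, against 21.4% of all genes in either direction.

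Between day 0 and day 2, genes of the system changed in both directions. All 4 HSP70 and HSP110 genes of the endoplasmic reticulum or mitochondria rose in CTL and in LIP. The mitochondrial HSP70 gene Hspa9 rose by 1.43 ± 0.12 on the log2 scale in CTL (edgeR adjusted p = 2.76e-07) and by 2.31 ± 0.13 in LIP (edgeR adjusted p = 4.18e-09), and Hyou1, the HSP110 of the endoplasmic reticulum, rose by 1.08 ± 0.12 and 1.19 ± 0.12. In the cytosol Hspa14 rose by 1.60 in CTL and 1.56 in LIP and Hspa2 by 1.51 and 1.70, while Hspa12a had -2.66 and -3.36. The values of Hspa2 and Hspa12a rest on few counts. Summed over a group, Hspa12a had 12 counts in CTL and 13 in LIP on day 2, and Hspa2 had 35 and 21 on day 0. Of 13 class A and B J-domain genes tested, 5 rose and 5 fell in CTL. Dnajb9, a J-domain protein of the endoplasmic reticulum, had -2.19 ± 0.25 in CTL and -0.81 ± 0.25 in LIP, Dnajb4 -1.79 and -1.06, Dnajb13 -1.43 and -2.01, and Dnajb11 1.25 and 1.39. Of 28 class C genes 11 rose and 8 fell in CTL, led by Dnajc6, the clathrin-uncoating auxilin, at -4.16 ± 0.46 in CTL and -3.02 ± 0.41 in LIP, and Dnajc28 at -2.49 and -2.17, whereas Dnajc2 (1.47 and 1.58) and Dnajc9 (1.33 and 1.44) rose in both. Among the other nucleotide exchange factors 7 of 9 rose and 1 fell in CTL. Bag2 had 1.97 ± 0.42 in CTL (edgeR adjusted p = 0.000892) and 0.56 ± 0.44 in LIP (edgeR adjusted p = 0.266), at levels of at most 3.06 CPM. Bag1 (1.29 and 1.20), Hspbp1 (0.97 and 1.10) and Sil1 (0.95 and 0.89) rose in both groups. The co-chaperones Stip1 (0.70 in CTL and 1.84 in LIP), St13 (0.74 and 1.33) and Hikeshi (0.75 and 1.11) rose in both groups as well, although Hikeshi did not pass in CTL with upper quartile scaling (0.46, edgeR adjusted p = 0.0598). Hsf2 rose by 0.34 and 0.46, but with library totals or upper quartile scaling its values of 0.05 to 0.15 did not pass. In all, with small heat shock proteins counted, 34 of 66 genes of the system rose and 15 fell in CTL, and 33 rose and 13 fell in LIP, against 35.3% of all genes higher and 33.7% lower in CTL and 36.6% and 35.2% in LIP. With upper quartile scaling the counts were 23 and 21 in CTL and 26 and 21 in LIP, and with library totals 26 and 17, and 24 and 22.

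**Figure D5:**
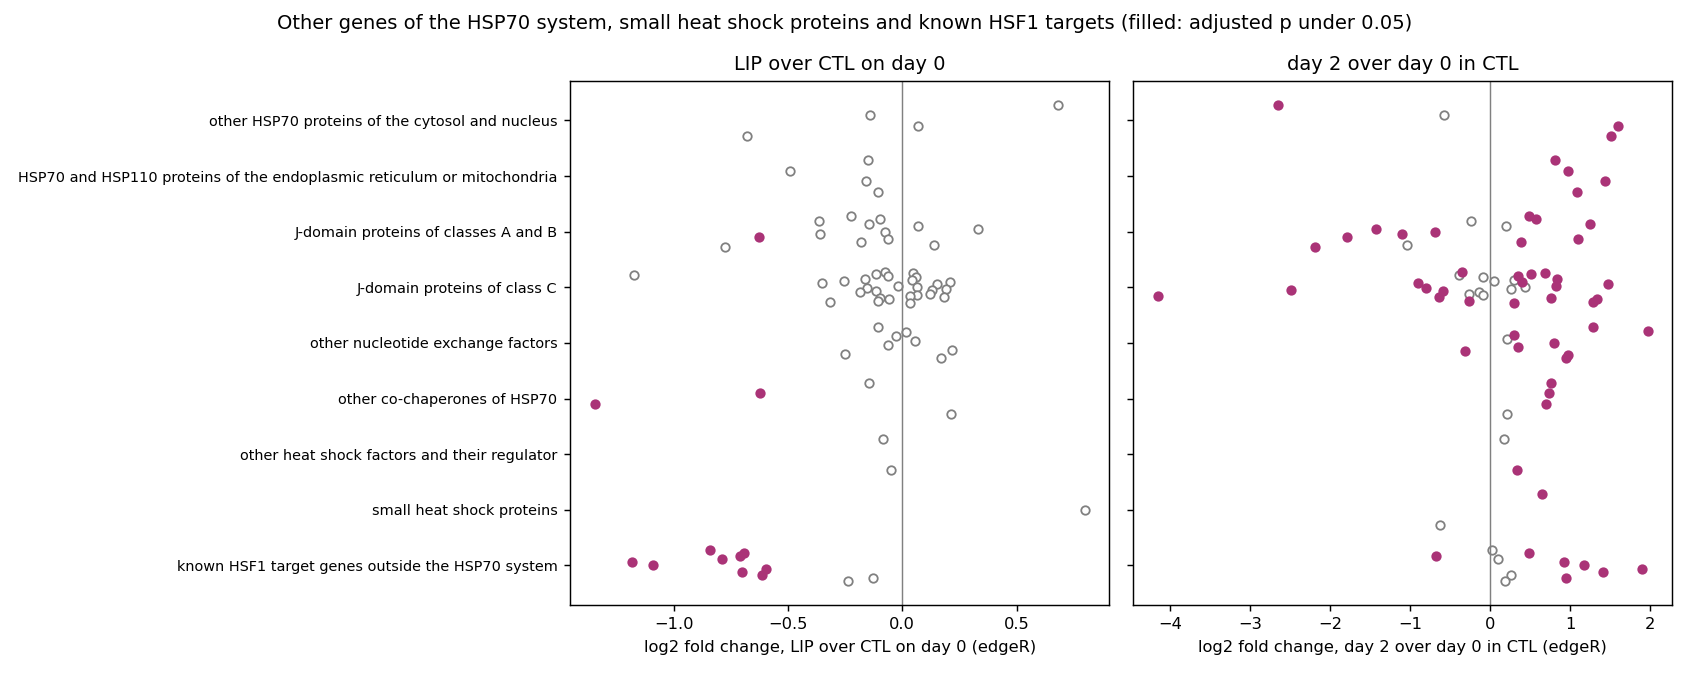
Log2 fold change (horizontal axis) of LIP over CTL on day 0 (left) and of day 2 over day 0 in CTL (right) for the other genes counted with the HSP70 system, small heat shock proteins included, and known HSF1 targets, by role (vertical axis). Each point is a gene, filled where the edgeR adjusted p is under 0.05. On day 0 the filled points are St13, Stip1, Dnajb4 and 9 HSF1 targets, all below 0.

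Profiles over the 12 libraries were compared as centred log2(CPM + 1) values among 9452 genes with a mean of at least 10 CPM, and the root mean square difference to a member is given as a description. The genes nearest to Hspa8 were Gm15459 (0.19), its pseudogene, Nt5m (0.23), Rpl31-ps8 (0.24), Snx3 (0.25) and Rpsa (0.25), and the nearest member was Hspa4 (0.39). Nearest to Hsph1 were Ahsa2 (0.33) and Chordc1 (0.37), both cofactors of HSP90, then Lman2l (0.44), Pde3b (0.45) and Cpt1a (0.46), with Dnajb1 (0.37) the nearest member. Hspa1a itself lies below that minimum, at group means of 0.776 to 6.95 CPM, and its profile is carried by CTL 94 at 17.6 CPM. The members nearest to it were Hspa1b (0.51), Dnajb1 (0.70) and Hsph1 (0.73), and the nearest genes outside the members were Tmem33, Chordc1, Ahsa1, Ahsa2 and Fkbp4 at 0.77 to 0.78. The profiles of Hspa8 and Hsph1 differed by 0.96.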

How the data were processed

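RNA was sequenced from splenic CD4+ T cells in 12 libraries, 3 in each of 4 groups set by the sample titles. Libraries were made with rRNA depletion and a directional kit and sequenced as 150-base pairs on DNBSEQ. Per the labels and the study's methods, reads were checked with FastQC 0.11.9 and trimmed with Trimmomatic, the build was GRCm39, and the authors deposited expected counts per gene from RSEM 1.3.0 with Bowtie2. The submitters' processing notes name Trimmomatic 0.38 and the methods another version. The authors also deposited normalized signal values (CPM) per day, together with fold changes and p-values of their own comparisons, which were not used. For 10 libraries those signal values differed from the CPM computed here by a constant factor per library. Among the day 2 values, 2 columns of per-sample values could not be tied to a sample and were not used.

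Expected counts were rounded to whole numbers. CPM levels use TMM factors over the 12 libraries. Tests were edgeR 4.0.16 quasi-likelihood tests (R 4.3.3) with filterByExpr and Benjamini-Hochberg adjustment over all genes tested, on the 6 libraries of a day or, between days, on all 12. The call threshold was an adjusted p of 0.05, and ± after a log2 fold change is its standard error. 95% intervals are normal intervals from these errors. They make no allowance for the small number of libraries and are therefore too narrow. Scripts were tested on simulated counts. Alternatives were other normalizations, filters, libraries in the fit, DESeq2 1.42.0 and leaving out each library. The sum of Hspa8 with the records that share stretches of 150 bases and a fit with the library number as a replicate block were added after the data were seen. Levels per kilobase use the GENCODE M39 canonical transcript, and of 55414 records 54749 matched GENCODE.

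The members and the lists were chosen with earlier results of these data known. All 10 members are named. Of the other genes of the system at most 4 per role are named, those with the largest change among genes past the threshold between days in CTL, and any past it between LIP and CTL. The HSP70 and HSP110 genes of the endoplasmic reticulum and mitochondria were all named on day 0 after their values were seen, as were Hsp90aa1, Hsp90ab1, Dnaja2, Dnajb6 and Ubb.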

Additional observations from a re-analysis of the deposited data

Results flagged for a closer look

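The difference between LIP and CTL in Hspa8 had opposite signs on the 2 days. All 3 LIP libraries lay below all 3 CTL libraries on day 0 (log2 fold change -0.94) and above them on day 2 (0.46), so that the day 2 effect exceeded the day 0 effect by 1.42 ± 0.19 (SE) on the log2 scale. The day 2 value did not pass the threshold (edgeR adjusted p = 0.233). Every LIP library lay below every CTL library for 9.85% of all genes on day 0, and the groups did not overlap, in either direction, for 21.4% on day 2. The difference was not tested here, because its values were known when the gene was chosen. The processed pseudogene Gm15459, which shares reads with Hspa8, was also lower in LIP on day 0, while its groups overlapped on day 2. Of 12946 genes tested on both days, 182 (1.41%) had every LIP library below the CTL libraries on day 0 and above them on day 2, and 126 (0.973%) had the opposite order. Among the listed genes outside the members the former held for 3 of 61 other genes of the HSP70 system and 2 of 11 HSF1 targets, singled out after their values were seen. Their differences between days were 0.76 ± 0.19 for Hspa5 (edgeR adjusted p = 0.1005), 0.46 ± 0.12 for Dnaja2 (edgeR adjusted p = 0.102), 0.36 ± 0.12 for Dnajb6 (edgeR adjusted p = 0.155), 0.49 ± 0.15 for Ubb (edgeR adjusted p = 0.131) and 1.46 ± 0.13 for Hsp90ab1, a cytosolic HSP90 gene (edgeR adjusted p = 0.000672). These genes were picked on these values, so their p-values are not independent of that choice. Groups of 3 libraries are too small for a search for single outlying samples.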

How the results depend on the processing

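No paired analysis was possible because the groups compared share fewer than 2 library numbers, in the comparisons of LIP with CTL within a day and of the days within a group. Over all 12 libraries, 4 pairs of libraries in different groups share a number, and the correlations of their deviations from the group means were -0.15 to 0.15, with 1 of 4 over 0.1. The pair at 0.15 was CTL 94 and LIP 94 of day 0. The numbers were taken as names, although 4 correlations cannot exclude a batch that follows them. On day 0 the numbers were 88, 89 and 94 in CTL and 92, 93 and 94 in LIP. A fit with the number as a replicate block, added after seeing the data, leaves 1 residual degree of freedom. With this block 6847 genes were called for day 2 over day 0 in CTL (5456 higher and 5220 lower without it), 6884 in LIP (5665 higher and 5446 lower without it) and 550 for the difference between days (8 without it). Under the block day 2 over day 0 in LIP was -0.27 for Hsph1 and 0.96 for Hspa1b, and the difference between days was -0.00308 for Hspa4 and -0.13 for Hsf1. In CTL the block left Hspa8 (0.52, edgeR adjusted p = 0.0530) and Bag3 (-0.38, edgeR adjusted p = 0.414) short of the threshold. In LIP it took Hspa1a past the threshold (2.09, edgeR adjusted p = 0.0470). No record is named as an Hspa8 pseudogene, so the sum planned with such records was replaced by the sum with records that share stretches of 150 bases, which was chosen after seeing the data and changed no call for Hspa8. The median log2 fold change of the members over the other settings ran from -0.81 to -0.67 for LIP over CTL on day 0, from -0.14 to -0.02 on day 2 and from 0.60 to 0.80 for the difference between days. Scaling mattered most between days. Library totals moved the median of all genes by -0.19 in CTL, -0.36 in LIP and -0.17 in the difference between days, and upper quartile scaling moved it by -0.29 in CTL and -0.32 in LIP. The members' median of day 2 over day 0 was then -1.08 in CTL and -0.25 in LIP with upper quartile scaling, and -0.98 and -0.29 with library totals. Changes there are best read relative to those shifts.

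Counts of genes called varied widely. For LIP over CTL on day 0 it was 60 (8 higher and 52 lower), but 645 with no filter, 202 with DESeq2, 12 with all 12 libraries in the fit and 13 to 658 when 1 library was left out, with 658 without CTL 94. Library totals gave 13 higher and 30 lower. On day 2 it was 0, but 662 with no filter, 485 with DESeq2, 775 with all 12 libraries, 1 with library totals, 1 with at least 10 counts in every library and 0 to 2014 when 1 library was left out, with 2014 without LIP 90. The difference between days gave 8, but 97 with library totals, 815 with no filter, 520 with DESeq2 and 1 to 1596 when 1 library was left out. Members called higher and members called lower on day 2 each ranged from 0 to 1. No member passed on day 2 with RLE, upper quartile, library totals, either filter, DESeq2 or all 12 libraries. When 1 library was left out, the median of day 2 over day 0 ranged from -0.84 to -0.28 in CTL and from -0.28 to 0.23 in LIP, where members called lower ranged from 1 to 4, and the median of the difference between days from 0.47 to 0.87.

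Signs turned mainly where values were near 0. On day 2 LIP over CTL was -0.0454 for Hspa4 with library totals, 0.0041 for Hspa4l and 0.00136 for Dnaja1 with no filter, and for Hsf1 -0.00685 with upper quartile, -0.0812 with library totals and -0.00375 with at least 10 counts. With 1 library left out it ranged from -0.0245 to 0.0976 for Hspa4, -0.13 to 0.0982 for Hspa4l, -0.25 to 0.0565 for Dnajb1, -0.26 to 0.0930 for Dnaja1 and -0.0645 to 0.0778 for Hsf1. For day 2 over day 0 in LIP, Hsph1 was -0.18 with upper quartile, -0.21 with library totals and -0.35 to 0.39 with 1 library left out, Dnajb1 was 0.00417 with RLE, 0.0275 with no filter, 0.00304 with DESeq2 and -0.21 to 0.12 with 1 library left out, and the sum of Hspa1a and Hspa1b was 0.26. In CTL, Hspa1a ranged from -1.91 to 0.72 with 1 library left out. The difference between days was -0.0261 for Hsf1 with library totals and ranged from -0.17 to 1.88 for Hspa1b with 1 library left out. The cause of these changes was not tested.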
